A study of Mus musculus with 5 samples.

Results

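Expression of 10 genes that mark oligodendrocyte precursors and the cells that form from them was read from RNA-seq libraries of hippocampal tissue taken at 3 months of age. The 10 genes were *Pdgfra*, *Cspg4*, *Olig1*, *Olig2*, *Sox10*, *Gpr17*, *Nkx2-2*, *Enpp6*, *Bcas1* and *Lhfpl3*. They were picked by symbol as genes known for this lineage, out of the 23361 symbols listed for each library. The study deleted *Hdac1*, the gene of a class I histone deacetylase, in the brain. The study bred floxed mice (*Hdac1* f/f) to a *Nestin-Cre* line and names age-matched *Hdac1* f/f mice as its young controls. The sample titles call the 2 controls used here WT. The 3 *Hdac1* conditional knockout (cKO) mice carried the *Nestin-Cre* transgene, and the 2 control mice are taken to have had no Cre. Deletion of *Hdac1* and presence of the transgene therefore cannot be told apart. According to the study's methods the young animals were male. By its immunostaining, the HDAC1 protein was absent from neurons and astrocytes while microglia kept it. *Nestin* is active in neural stem cells, from which oligodendrocyte lineage cells of the brain also arise, and deletion in that lineage was not measured here. Values are FPKM, sequenced fragments relative to the length of the transcript and to the mapped fragments of the library, so that levels can be set side by side between genes of unlike length.

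Oligodendrocytes make the myelin of the central nervous system, and they form throughout life from dividing precursor cells spread over the brain. Precursors carry PDGFRA, the receptor for the mitogen PDGF-AA, and the NG2 proteoglycan encoded by *Cspg4*, while the transcription factors OLIG2, OLIG1, SOX10 and NKX2-2 set the identity of the lineage and its differentiation. Cells that leave the precursor state pass through stages marked by GPR17 and then by ENPP6 and BCAS1 before the myelin proteins are made. Deacetylases HDAC1 and HDAC2 together are known to be needed for oligodendrocytes to differentiate during development.

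The 10 genes had no common direction between genotypes, and none passed the test across all genes. *Bcas1* and *Enpp6*, which mark newly formed oligodendrocytes, were higher in every cKO library than in either control, at 125% and 179% of the control mean. *Cspg4* was lower in every cKO library, at 82.6% of the control mean, and *Olig2* was at 75.4% of it with groups that overlapped. All 10 genes had a mean of at least 1 FPKM and were tested with limma on log2(FPKM + 1), in a fit over 12740 genes. With adjustment over all of these, 0 of the 10 had an adjusted p under 0.05, as against 1 of 12740 genes (0.00785%). The deleted gene *Hdac1*, at −1.66 on the log2 scale, had an adjusted limma p of 0.219 in the same fit. A fit that did not call *Hdac1* cannot show that the 10 genes were unchanged. At an unadjusted p under 0.05 there were 2 of the 10 (*Bcas1* and *Enpp6*, both higher), where 4.36% of all genes were called. Groups did not overlap with cKO higher for 2 of the 10, against 11.0% of all genes, and with cKO lower for 1 of the 10, against 9.41% of all genes. The fold change was positive for 3 genes and negative for 7, with a median of −0.07 on the log2 scale against 0.01 over all tested genes. In whole tissue, fewer cells of a type and less RNA per cell cannot be told apart, and this holds for each gene described here.

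*Hdac1* itself was at 8.95 and 13.1 FPKM in control mice, and 1.95, 3.12 and 3.37 FPKM in *Hdac1* cKO mice, lower in every cKO library, with some signal left in whole tissue. Depth was estimated at 5140000 to 6770000 fragments per library. The 5 libraries formed sets that cross the genotypes, seen as shared steps in the low FPKM values. The first set held control 1 and cKO 1, and the second held control 2, cKO 2 and cKO 3. The share of low genes with a common ratio was 24.6% to 28.4% for pairs inside a set and 3.71% to 4.64% for pairs across sets. What the sets stand for is not given in the labels, and differences within each set are therefore printed beside the pooled ones. Choroid plexus genes, chiefly *Ttr*, differed widely between libraries without regard to genotype, with a summed level of 6.21 to 600.3 FPKM.

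The levels of the 10 genes covered a wide range. *Bcas1*, with a mean of 51.3 FPKM over the 5 libraries, and *Olig1*, with 46.3 FPKM, were the most abundant, and their order differed between libraries. *Pdgfra* followed at 12.6 FPKM and overlapped with *Lhfpl3*. *Lhfpl3* at 9.46, *Sox10* at 7.24, *Olig2* at 6.93 and *Gpr17* at 6.45 FPKM lay near each other, and the neighbours in this order overlapped across libraries. *Cspg4* at 2.02 FPKM stood below them in every library. *Nkx2-2* and *Enpp6*, both at 1.41 FPKM, were the least abundant, and they overlapped with *Cspg4*. At the estimated depth *Nkx2-2* rested on about 9.48 to 25.9 fragments per library and *Enpp6* on about 15.4 to 43.6, so both carry a large counting error. *Lhfpl3*, with a short GENCODE gene model of 713 exonic nucleotides, was put at about 35.2 to 45.8 in spite of its higher FPKM. *Bcas1* was put at about 769 to 1140. These estimates use GENCODE lengths, while the study names UCSC gene annotation for its FPKM, so they are rough wherever the gene models differ. Summed over the 10 genes, the level was 152 and 136 FPKM in control mice, and 155, 129 and 152 FPKM in *Hdac1* cKO mice, with groups that overlapped.

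**Figure D1:**
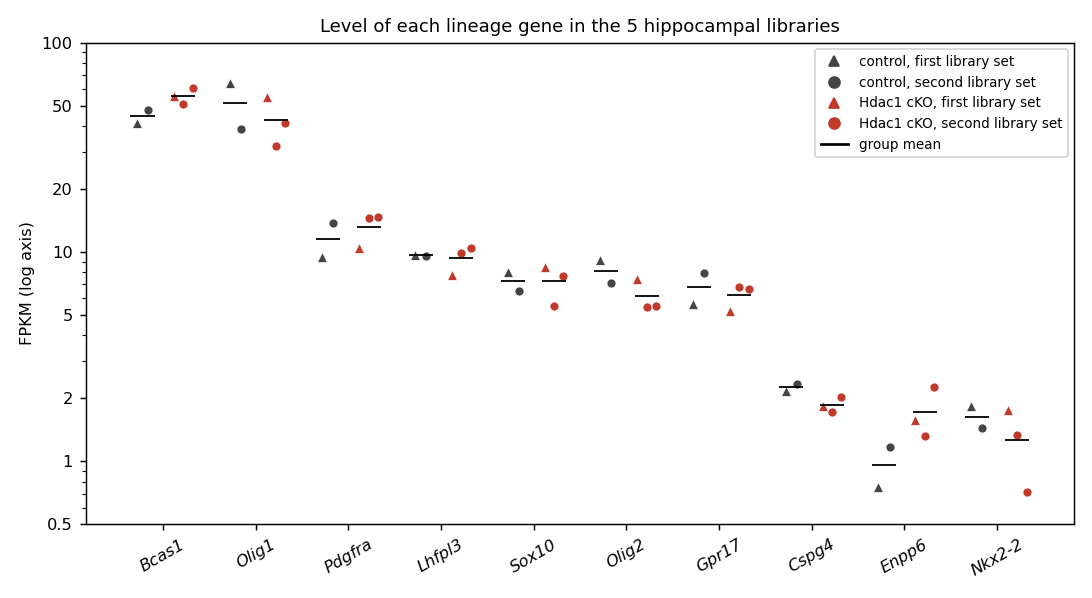
FPKM of each of the 10 genes (log axis) in every library, with controls in grey, cKO libraries in red, triangles for the first library set, circles for the second and a black line at each group mean. Points of the 2 groups are separated for *Bcas1*, *Enpp6* and *Cspg4* and overlap for the other 7 genes, and *Olig1* and *Pdgfra* differ more between triangles and circles than between colours.

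Among the 4 transcription factors, *Olig2* had the most negative fold change on the log2(FPKM + 1) scale, while *Nkx2-2* was at −0.42 against −0.40 for *Olig2* with a pseudocount of 0.1, and *Olig1* at −0.61 against −0.53 without control 2. *Olig2* and *Olig1* encode related basic helix-loop-helix factors and lie on the same strand of chromosome 16, *Olig2* at chr16:91225795-91228922 and *Olig1* at chr16:91270014-91272184 (mm9, plus strand), 41.1 kb apart. *Olig2*, which is needed for precursors to form, was at 9.17 and 7.08 FPKM in control mice, and 7.46, 5.44 and 5.49 FPKM in *Hdac1* cKO mice. Both cKO libraries of the second set lay below every control, while cKO 1 lay above control 2, so the groups overlapped. The cKO mean was 6.13 ± 1.15 FPKM (SD, n = 3) against 8.13 ± 1.48 FPKM (SD, n = 2) in controls. Its fold change on the log2 scale was −0.36 (SE 0.17, 95% interval −0.75 to 0.03), and limma gave an unadjusted p of 0.0651 (adjusted p = 0.955). The difference was −0.27 within the first set and −0.32 within the second. With the set as a term in the fit it was −0.30, and limma gave an unadjusted p of 0.0211 (adjusted p = 0.497), so the call across all genes did not change.

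*Olig1*, whose product acts later in differentiation and remyelination, was at 64.3 and 38.7 FPKM in control mice, and 55.0, 32.1 and 41.5 FPKM in *Hdac1* cKO mice. The highest values in each genotype were those of the first set, and the groups overlapped. The genotype difference was −0.25 (SE 0.25, 95% interval −0.83 to 0.33, adjusted p = 0.966), with −0.22 within the first set and −0.08 within the second. Without control 1 the direction turned, to 0.11. *Olig1* and *Olig2* were thus lower in cKO within both sets, and for *Olig1* the difference between sets was larger than that between genotypes.

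*Sox10*, an HMG-box factor present from the precursor to the mature oligodendrocyte, lies at chr15:78985343-78994920 on the minus strand. Its level was 8.05 and 6.48 FPKM in control mice, and 8.49, 5.49 and 7.70 FPKM in *Hdac1* cKO mice. Both the highest and the lowest value came from cKO mice. The log2 fold change was −0.02 (95% interval −0.44 to 0.40, adjusted p = 0.992), with 0.07 and 0.01 within the sets. *Nkx2-2*, a homeodomain factor of precursors at the onset of differentiation, lies at chr2:147003282-147019979 on the minus strand. Its level was 1.83 and 1.44 FPKM in control mice, and 1.75, 1.33 and 0.709 FPKM in *Hdac1* cKO mice. The groups overlapped, and cKO 3 alone was below 1 FPKM. Its fold change on the log2 scale was −0.24 (95% interval −0.75 to 0.27, adjusted p = 0.956), with −0.04 and −0.29 within the sets. An antisense gene, *Nkx2-2as*, covers 278 of the 2875 exonic nucleotides of *Nkx2-2*, and whether counting used the strand is not given in the sources used here, so reads from the shared stretch cannot be told apart.

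The receptors and surface proteins of precursors showed no common direction. *Pdgfra* lies at chr5:75548316-75594229 on the plus strand. Its level was 9.41 and 13.7 FPKM in control mice, and 10.4, 14.5 and 14.7 FPKM in *Hdac1* cKO mice. Libraries of the first set were low and those of the second high in both genotypes, and the groups overlapped. The genotype difference was 0.18 (SE 0.19, 95% interval −0.26 to 0.63, adjusted p = 0.966), with 0.13 and 0.08 within the sets and 0.10 with the set as a term. Without control 1 it was −0.07.

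*Cspg4*, the NG2 proteoglycan gene at chr9:56712911-56747677 (plus strand), was at 2.16 and 2.35 FPKM in control mice, and 1.85, 1.71 and 2.02 FPKM in *Hdac1* cKO mice. Every cKO library was below both controls. The log2 fold change was −0.19 (SE 0.14, 95% interval −0.52 to 0.14), and limma gave an unadjusted p of 0.229 (adjusted p = 0.955). It was −0.15 within the first set and −0.23 within the second. *Cspg4* and *Pdgfra* share their cell type in the brain parenchyma, yet their fold changes had opposite signs, and both intervals included 0.

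*Gpr17*, a G protein-coupled receptor of precursors that have begun to differentiate, lies at chr18:32102651-32109290 on the minus strand. Its level was 5.66 and 7.90 FPKM in control mice, and 5.24, 6.81 and 6.63 FPKM in *Hdac1* cKO mice. Each cKO library was below the control of its own set, while the groups overlapped when pooled. Its fold change on the log2 scale was −0.10 (95% interval −0.48 to 0.29, adjusted p = 0.978), with −0.09 and −0.20 within the sets. Its exons share 188 nucleotides with *Lims2* on the other strand. *Lhfpl3*, a tetraspan membrane protein gene enriched in precursors, lies at chr5:22252011-22618785 on the plus strand. Its level was 9.67 and 9.60 FPKM in control mice, and 7.77, 9.84 and 10.4 FPKM in *Hdac1* cKO mice. The cKO library of the first set was the lowest and those of the second set were the highest. The genotype difference was −0.05 (95% interval −0.37 to 0.27, adjusted p = 0.989), and *Lhfpl3* was the only member with opposite signs within the sets, −0.28 and 0.07.

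Of the 10 genes, *Enpp6* and *Bcas1* mark newly formed oligodendrocytes, and for both of them every cKO library was above both controls, while neither passed the adjusted test. *Enpp6* encodes a choline phosphodiesterase made for a short time as the cell matures, and lies at chr8:48072279-48180249 on the plus strand. Its level was 0.750 and 1.17 FPKM in control mice, and 1.57, 1.32 and 2.26 FPKM in *Hdac1* cKO mice. All cKO values were above both controls, the mean being 1.71 ± 0.486 FPKM (SD, n = 3) against 0.959 ± 0.296 FPKM (SD, n = 2). For *Enpp6* the genotypes differed by a log2 fold change of 0.46 (SE 0.20, 95% interval 0.0076 to 0.92), and limma gave an unadjusted p of 0.0471 (adjusted p = 0.955). It was 0.55 within the first set and 0.34 within the second, and with the set as a term the unadjusted limma p was 0.0623. At these low levels the scale understates the ratio. Without control 1 the fold change was 0.31, with an unadjusted limma p of 0.252, and without cKO 3 it was 0.32, with 0.148.

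*Bcas1* encodes a protein of early myelinating oligodendrocytes and of myelin, and lies at chr2:170172491-170253345 on the minus strand. Its level was 41.5 and 47.5 FPKM in control mice, and 55.6, 50.7 and 61.0 FPKM in *Hdac1* cKO mice. All cKO values were above both controls, the mean being 55.8 ± 5.19 FPKM (SD, n = 3) against 44.5 ± 4.28 FPKM (SD, n = 2). Its fold change on the log2 scale was 0.32 (SE 0.12, 95% interval 0.05 to 0.58), and limma gave an unadjusted p of 0.0240 (adjusted p = 0.955). It was 0.41 within the first set and 0.22 within the second. With the set as a term it was 0.31, and limma gave an unadjusted p of 0.0144 (adjusted p = 0.470). The unadjusted limma p was above 0.05 without control 1 (0.168) and without cKO 3 (0.0942), with fold changes of 0.22 and 0.25, and after rescaling to a common total (0.0974), with 0.25. Its exons share 440 of 3775 nucleotides with *Gm14259* and 34 with *1700040N02Rik*, both on the other strand.

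**Figure D2:**
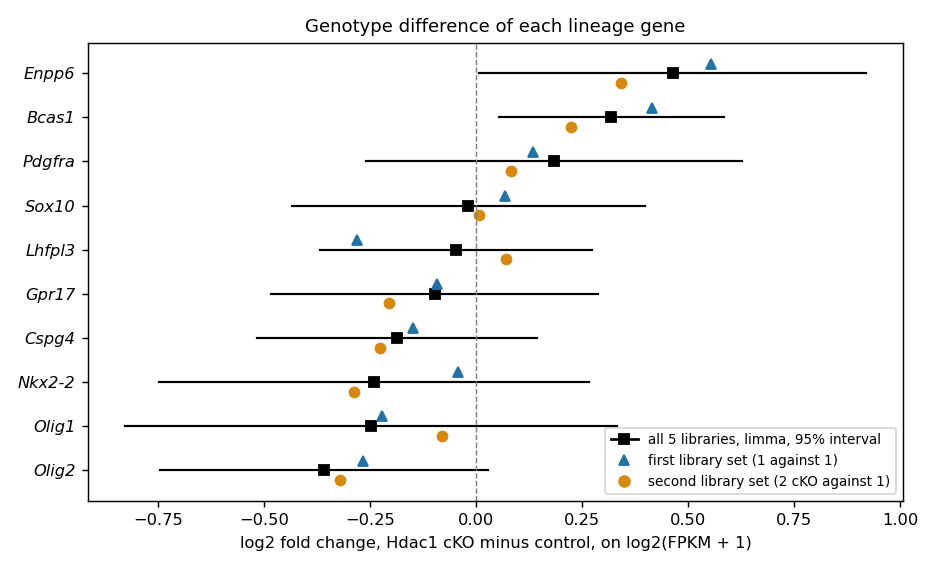
Genotype difference (cKO minus control, log2 scale, x axis) of each gene (y axis) over the 5 libraries with its 95% interval (black squares and lines), within the first library set (triangles) and within the second (circles). The intervals of *Enpp6* and *Bcas1* lie above 0 and those of the other 8 genes include 0, while the markers of both sets fall on the same side of 0 for every gene but *Lhfpl3*.

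Within the sets the signs repeated for 9 of the 10 genes, 4 positive and 5 negative, where 7650 of the 12740 tested genes had the same sign in both sets. The sets have no library in common, but each comparison holds 1 control only, and no p-value was given. *Sox10* counted among the 4 positive genes although its pooled value was −0.02.

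Several of the 10 genes differed between the library sets. With genotype in the model, 4 of the 10 differed between the sets at an unadjusted limma p under 0.05, where 22.9% of all genes did. *Olig1* was at −0.64 on the log2 scale in the second set relative to the first (adjusted p = 0.0349 in limma) and *Pdgfra* was higher by 0.47 (adjusted p = 0.0394). *Olig2* was at −0.36 (adjusted p = 0.0957) and *Gpr17* at 0.35 (adjusted p = 0.109). The set differences of *Olig1* and *Pdgfra* thus passed the test over all genes while their genotype differences did not.

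The base composition of the transcripts ran along with these differences. GC content of the longest coding transcript was 44.96% for *Enpp6*, 47.7% for *Pdgfra*, 50.9% for *Bcas1* and 53.4% for *Gpr17*. It was 55.7% for *Nkx2-2*, 57.8% for *Lhfpl3*, 58.2% for *Olig2*, 59.2% for *Cspg4*, 60.8% for *Olig1* and 61.7% for *Sox10*. The 3 genes with positive fold changes were those with the lowest GC content. Over the 10 genes the genotype fold change and GC content had a Pearson r of −0.80 and a Spearman rho of −0.62, and the difference between sets had −0.69 and −0.67. These are descriptions across genes that share the same 5 libraries. Over 11760 tested genes with a coding transcript the same r values were −0.33 and −0.38. The 639 genes with a GC content of at least 60% had a median genotype fold change of −0.13, and the 2632 genes under 45% had 0.07.

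An added fit, chosen after seeing the data, removed the GC trend of each library. In it the fold change of *Bcas1* was 0.31, with an unadjusted limma p of 0.0129, and that of *Enpp6* was 0.41, with 0.0630. *Olig2* was at −0.28, with an unadjusted limma p of 0.0702. *Cspg4* moved to −0.09, *Olig1* to −0.13 and *Sox10* to 0.11. The values of *Bcas1*, *Enpp6* and *Olig2* thus kept most of their size, while those of *Cspg4* and *Olig1* came nearer to 0. No gene of the 10 had an adjusted p under 0.05 in that fit, and 0 of the 11760 genes had, against 604 at an unadjusted limma p under 0.05.

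**Figure D3:**
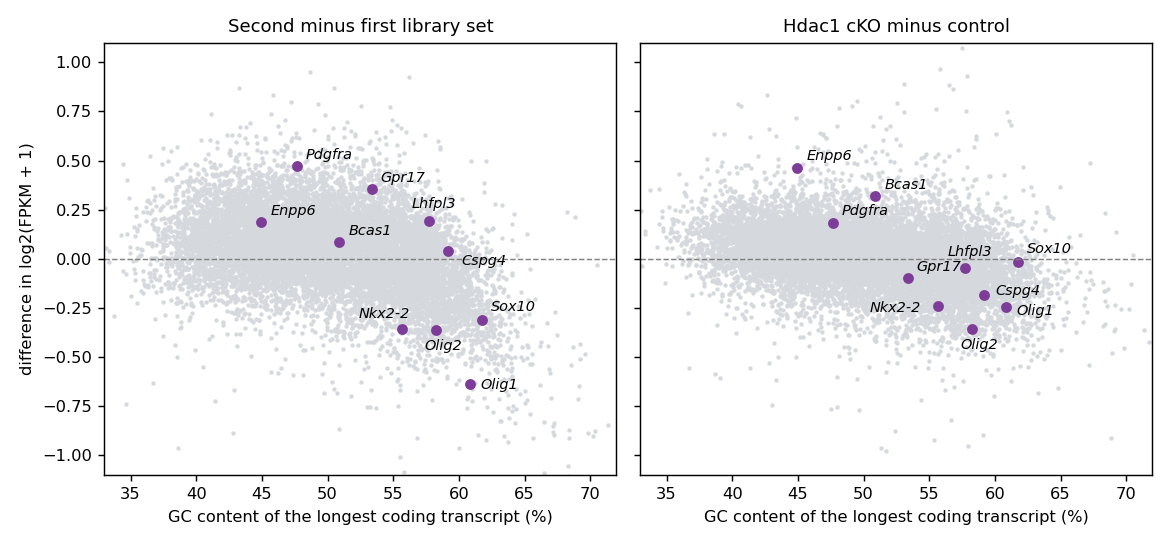
Difference in log2(FPKM + 1) between the library sets (left) and between genotypes (right) against GC content of the longest coding transcript in percent, with the 10 genes in purple and the tested genes with a coding transcript in grey (22 of 11760 lie outside the axes in a panel). Genes with high GC content lie lower in both panels, with *Olig1* at −0.64 on the left and *Enpp6* at 0.46 on the right.

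The study reported guanine-rich motifs at promoters of genes lower in aged *Hdac1* cKO mice, in windows on both sides of the start site. The reading here differs in age, window and genes, since the mice were young and none of the 10 genes passed the adjusted test. The 250 bases upstream of the start site were read for the 6 of the 10 genes matched in the RefSeq windows used (GRCm38.p6). Whether such motifs bear on the fold changes here was not tested. *Olig1*, *Sox10*, *Gpr17* and *Bcas1* were not matched in that set of windows, which says nothing about their annotation in RefSeq itself. Searched on both strands were GGGCGG, the GC box of SP and KLF factors, CANNTG, the E-box of helix-loop-helix factors, and ACAAAG, a SOX factor motif, with matches allowed to overlap. Of 32851 upstream windows of the same length, 32.7% held GGGCGG, 66.2% CANNTG and 16.5% ACAAAG. The 3 windows shown belong to the member with the most negative fold change on the log2(FPKM + 1) scale, the member lower in every cKO library and the member with the most positive fold change, at chr16:91225300-91225549, chr9:56864854-56865103 and chr8:46986637-46986886, all on the plus strand. Capitals mark GGGCGG, here found as its reverse complement.
Olig2: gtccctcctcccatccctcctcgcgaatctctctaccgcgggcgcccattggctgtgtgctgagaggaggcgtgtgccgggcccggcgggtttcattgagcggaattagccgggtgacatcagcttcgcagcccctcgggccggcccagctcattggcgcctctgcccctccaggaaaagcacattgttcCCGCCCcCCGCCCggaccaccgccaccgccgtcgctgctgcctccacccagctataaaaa
Cspg4: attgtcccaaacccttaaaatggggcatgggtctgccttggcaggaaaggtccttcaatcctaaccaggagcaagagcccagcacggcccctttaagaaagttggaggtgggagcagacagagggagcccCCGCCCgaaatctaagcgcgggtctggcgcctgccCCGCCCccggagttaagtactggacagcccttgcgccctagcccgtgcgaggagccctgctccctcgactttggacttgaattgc
Enpp6: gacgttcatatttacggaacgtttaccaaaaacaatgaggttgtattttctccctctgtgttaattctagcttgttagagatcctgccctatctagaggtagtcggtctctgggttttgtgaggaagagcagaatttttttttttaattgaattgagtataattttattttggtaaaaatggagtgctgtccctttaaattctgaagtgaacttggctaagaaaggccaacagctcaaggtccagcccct
The *Olig2* and *Cspg4* windows each held 2 GC boxes and neither of the other motifs. Their GC content was 66.8% and 60.4%, with 22 and 12 CpG dinucleotides, against a median of 52.4% and 6 over all windows. The *Enpp6* window held none of the 3 motifs, with a GC content of 38.4% and 4 CpG dinucleotides. GC content of the other windows was 67.2% for *Lhfpl3*, 56.4% for *Nkx2-2* and 54.4% for *Pdgfra*. GC boxes were present once in the *Nkx2-2* and *Lhfpl3* windows and 0 times in that of *Pdgfra*, and ACAAAG was found in none of the 6. The E-box letters were found 3 times in the *Nkx2-2* window, 2 times in that of *Lhfpl3* and 1 time in that of *Pdgfra*. A match to these letters is a description and not a measured binding site.

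Other genes of the lineage were taken from lists by stage and role, with 5 to 12 tested genes in each, and none had an adjusted p under 0.05 in limma. Of 12 further precursor genes, 5 had positive and 7 negative fold changes, with a median of −0.04 that turned to 0.05 without control 1. *Ptprz1*, a receptor phosphatase shared with astrocytes, was at 24.5 and 25.6 FPKM in control mice, and 29.7, 32.7 and 32.3 FPKM in *Hdac1* cKO mice, a log2 fold change of 0.32 with an unadjusted limma p of 0.0118. Every cKO library was above both controls for *Ptprz1*, as for *Bcas1*.

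Of 10 further genes of newly formed oligodendrocytes, *Tcf7l2* and *Bmp4* were under 1 FPKM on average and were not tested. *Tcf7l2*, a transcription factor gene, was below both controls in every cKO library, at 65.2% of the control mean and with both means near or under 1 FPKM. The 8 tested had a median of 0.03, with 7 positive (a median of −0.02 after rescaling to a common total or without control 1). *Rras2*, a small GTPase gene, had the largest fold change, 0.19, and *Cnksr3*, a scaffold gene, had 0.09, with no unadjusted p under 0.05 among the 8. None of the 8 reached the fold changes of *Enpp6* and *Bcas1*, the members of the same stage. Which cells of the tissue made the RNA of the 8 was not tested. Of 7 further transcription factors of the lineage, 5 were positive and 2 negative, from *Myt1* at −0.13 to *Zeb2* at 0.14, with no unadjusted p under 0.05. Their median was 0.10, and 0.00084 without control 2.

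Of 7 genes that hold back differentiation, *Lingo1*, a receptor component that restrains myelination and is also abundant in neurons, was at 25.3 and 27.4 FPKM in control mice, and 21.97, 17.1 and 19.9 FPKM in *Hdac1* cKO mice. Every cKO library was below both controls, with a log2 fold change of −0.41 and an unadjusted limma p of 0.0107. *Hes5*, a Notch target, was at −0.37 with groups that overlapped. Of the 7 genes, 3 had positive and 4 negative fold changes. The list had a median of −0.17, with −0.20 within the first set and 0.02 within the second. That median rested on single libraries, being 0.04 without control 1, −0.35 without control 2 and −0.07 without cKO 3, and it was −0.05 with the GC trend removed. Among growth factors that act on precursors, *Igf1* was under the filter and the 5 tested had 3 positive and 2 negative values. *Pdgfa*, which encodes the ligand of PDGFRA, was at 16.0 and 16.1 FPKM in control mice, and 17.9, 18.8 and 22.1 FPKM in *Hdac1* cKO mice. Every cKO library was above both controls, and its log2 fold change was 0.27 with an unadjusted limma p of 0.0529. *Pdgfb* was at −0.30, with an unadjusted limma p of 0.0752 and every cKO library below both controls.

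Of 12 myelin genes, 11 had positive fold changes, where 53.7% of all tested genes did. The median of the 12 was 0.15, with −0.0039 within the first set and 0.27 within the second. The positive median was thus that of the second set. Without cKO 3 it was 0.06. *Opalin*, a myelin membrane protein gene, was at 20.7 and 20.4 FPKM in control mice, and 23.8, 27.3 and 23.3 FPKM in *Hdac1* cKO mice, a log2 fold change of 0.25 with an unadjusted limma p of 0.0460. *Mal*, a myelin proteolipid gene, was at 0.24. Summed over the 12 genes the level was 2011 and 1740 FPKM in control mice, and 2023, 1736 and 2222 FPKM in *Hdac1* cKO mice, and the groups overlapped.

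**Figure D4:**
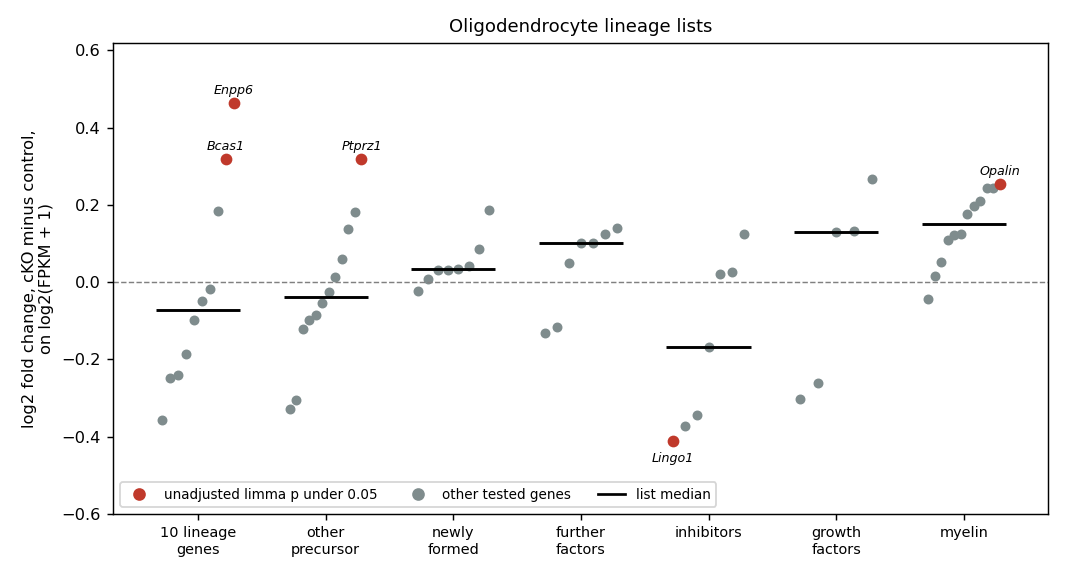
Log2 fold change (cKO minus control, y axis) of every tested gene of the 10 lineage genes and of 6 further lineage lists (x axis), with red points for an unadjusted limma p under 0.05 and a line at each list median. The medians run from −0.17 for the inhibitors to 0.15 for the myelin genes, and 5 genes are red.

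Several of the 10 genes are also made by other cells of the tissue, and the markers of those cells were read in the same libraries. *Cspg4* is made by pericytes, the contractile cells of capillaries. Of 8 pericyte markers 7 were tested, none with an unadjusted p under 0.05 or groups that did not overlap, and the summed level of the 8 was 80.7 and 82.2 FPKM in control mice, and 77.3, 80.9 and 91.6 FPKM in *Hdac1* cKO mice. *Kcnj8* was at 0.34 and *Ndufa4l2* at −0.19. *Pdgfra* is also made by fibroblasts of the meninges and vessels. Of 7 fibroblast markers the 5 tested had positive fold changes, with *Ogn* at 0.34 (unadjusted limma p of 0.0447) and *Col1a2* at 0.33, and the summed level of the 7 was 41.1 and 54.2 against 48.0, 59.4 and 54.0 FPKM. The collagen genes *Col1a1* and *Col3a1* were under the filter and were not tested, at 156% and 258% of the control mean, and for *Col3a1* every cKO library was above both controls, with 0.356 and 0.314 FPKM in the controls against 0.830, 0.607 and 1.16 FPKM.

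*Olig1* and *Olig2* can be made at low levels by astrocytes. Of 10 astrocyte markers 7 had positive fold changes, 6 with every cKO library above both controls, and *Aqp4*, the astrocyte water channel gene, was at 0.78 and *Gfap* at 0.43. In limma *Aqp4* had an adjusted p of 0.175. It was 0.0187 with the set as a term and 0.0249 with the replicate number as a term, so its call changed. *Gfap* had 0.955, 0.405 and 0.278. No control shares the replicate number of cKO 3, so the replicate term takes that library out of the genotype difference. The summed level of the 10 markers was 2725 and 2746 FPKM in control mice, and 2965, 3013 and 3127 FPKM in *Hdac1* cKO mice, so the groups did not overlap, while *Olig2* was lower in the cKO mean. The 10 neuronal markers had negative fold changes, led by *Nefm* at −0.38 (unadjusted limma p of 0.0469) and *Stmn2* at −0.25 (0.0304). For 3 of them, *Nefm*, *Stmn2* and *Rbfox3*, every cKO library was below both controls, and the 10 had a summed level of 1802 and 1959 against 1718, 1695 and 1857 FPKM. Of 8 microglial markers 4 were positive and 4 negative, with none at an unadjusted p under 0.05. The part that these cell types, or the share of each cell type in the tissue, have in the values of the 10 genes was not tested.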

How the data were processed

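RNA-seq was analysed for hippocampus of 2 control and 3 *Hdac1* cKO mice. The authors prepared total RNA libraries (Illumina TruSeq), aligned reads with TopHat and Bowtie to mm9 and deposited FPKM values from Cufflinks 2.0.0. FPKM are normalized and hold no read totals, so no count test was used. The 12740 of 23361 genes averaging 1 FPKM or more were tested with limma 3.58.1 in R 4.3.3 on log2(FPKM + 1), with a variance trend, genotype as the only term, two-sided p-values and Benjamini-Hochberg adjustment over all tested genes. The scale understates changes of low genes. The script was tested on simulated data. Low genes (mean under 0.3 FPKM) gave the library sets (libraries sharing over 10% in a window of 0.05 log2 units). Low values of genes with 1 annotated transcript of at least 1 kb gave an approximate depth, which rested on 30 to 77 genes per library. No interval was derived from it.

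The 10 genes, the lists and the library sets were chosen with earlier results of these data known. Named in the other lists were genes with an unadjusted p under 0.05 and the 2 largest fold changes, of which 1 gene is not reported here. Gene coordinates are 1-based from GENCODE vM1 (mm9), and those of upstream windows from RefSeq (GRCm38.p6). The numbers of animals come from the study, and the labels do not say that the samples are separate animals. If they are not, p-values measure technical spread. The alternatives were the pseudocount, filter, scaling, variance trend, replicate and set blocks, each library left out, and, added later, removal of the GC trend.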

Additional observations from a re-analysis of the deposited data

How the results depend on the processing

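No member had an adjusted p under 0.05 in any alternative, and the median over the 10 genes ran from −0.13 (common total) to −0.02 (GC trend removed with the replicate block), against −0.07. Over the alternatives *Bcas1* ranged from 0.22 to 0.42, with an unadjusted limma p under 0.05 in 14 of 17 tests, *Enpp6* from 0.28 to 0.77 (7 of 16), *Olig2* from −0.53 to −0.19 (6 of 17) and *Cspg4* from −0.27 to −0.09 (0 of 16), each with its direction kept. The number of members at an unadjusted p under 0.05 was 1 instead of 2 with a mean of at least 5 FPKM (where *Enpp6* was not tested, and 403 of 9191 genes were called), with a common total (550 of 12742, the member then being *Olig2*, at an unadjusted limma p of 0.0262, and neither *Bcas1* nor *Enpp6*), with the GC trend removed (604 of 11760) and with that and the replicate block together (1170 of 11760), and 0 to 4 with each library left out (0 without control 1 or cKO 3, where 420 and 422 of all genes were called, and 4 without control 2, where 685 were). Members whose groups did not overlap numbered 1 instead of 3 with a mean of at least 5 FPKM (1876 of 9191 genes), and 3 to 7 with each library left out. The 7 arose without control 2, where 6948 of 12726 genes did not overlap, and without cKO 1, where 5122 of 12752 did not, so the smaller groups raise this count for all genes.

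Signs turned for 6 of the 10 members. With each library left out, *Pdgfra* ran from −0.068 to 0.43, *Olig1* from −0.61 to 0.11, *Sox10* from −0.16 to 0.14, *Gpr17* from −0.31 to 0.11 and *Lhfpl3* from −0.12 to 0.066. *Sox10* was at 0.034 with the set block, at 0.11, 0.12 and 0.048 with the GC trend removed alone, with the set block and with the replicate block, and at 0.069 and 0.0071 within the sets. *Lhfpl3* was at 0.022 with the GC trend removed and at 0.071 within the second set, and *Nkx2-2* at 0.0012 with the GC trend removed and the replicate block. The cause was not tested.

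Titles share replicate numbers 1 and 2, and same-numbered libraries deviated together (r of 0.40 and 0.27 across 12740 genes), but each pair lies inside a library set and nothing in the labels says that the numbers pair mice. Replicate number 3 is held by cKO 3 alone, so the replicate block takes that library out of the genotype difference. The fold changes with this block are therefore those without cKO 3. With the replicate block 3 members had an unadjusted limma p under 0.05. These were *Bcas1* at 0.25 (p of 0.0342), *Olig2* at −0.30 (0.0360) and *Olig1* at −0.24 (0.0145). *Enpp6*, at 0.32 (0.137), was not among them. Over all genes, 1430 instead of 555 had an unadjusted p under 0.05. *Hdac1*, at −1.66 with an adjusted p of 0.219, passed the test at −1.77 with the replicate block (adjusted p = 0.0115), at −1.74 with the set block (0.00389) and at −1.75 with the set block and the GC trend removed (0.00199), but not with the GC trend removed alone (0.0768) or together with the replicate block (0.0578). Low depth limits *Nkx2-2* and *Enpp6* most.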
